A study of Mus musculus with 2 samples.

Results

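The genes described here make, break down and read retinoic acid: the synthesis enzyme Aldh1a2, the degrading enzymes Cyp26a1, Cyp26b1 and Cyp26c1, the receptors Rara, Rarb and Rarg, and their partners Rxra, Rxrb and Rxrg. These 10 genes were found by symbol among the 27998 genes of the deposited count tables. The counts came from wild type C57BL/6 mouse embryos, from which the somites between the limb buds were cut out with forceps and dissociated with trypsin, at the ages E9.5 and E11.5. At each age the somites of 3 embryos were pooled and loaded as 1 single-cell library, so no embryo can be told apart and the age of a cell cannot be told apart from its library. There is no replicate of either age, no test between ages was possible, and the intervals below cover counting error only.

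Retinoic acid is a signal made from vitamin A. ALDH1A2 oxidises retinaldehyde to retinoic acid, CYP26 enzymes oxidise retinoic acid to inactive products, and the balance of the enzymes sets where the signal is present. Inside the nucleus retinoic acid binds an RAR, which sits on DNA as a dimer with an RXR at paired half-sites called direct repeats (DR), and the pair switches from holding corepressors to holding coactivators. In the trunk of the embryo the paraxial mesoderm is a known source of retinoic acid, where the signal acts against FGF8 from the tail end, keeps somite formation even on the left and the right, and is read by the neighbouring neural tube.

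The E9.5 library held 10121 cell barcodes and 149368952 unique molecular identifiers (UMIs, each standing for 1 captured RNA molecule), and the E11.5 library 10167 barcodes and 136655763 UMIs. Cells with at least 200 and fewer than 6500 genes and under 15% mitochondrial UMIs were kept, which left 9851 and 9595 cells with a median of 12462 and 12479 UMIs. The libraries shared 30 barcodes. Kept cells were sorted by marker genes into 20 gates, none of which used a retinoid gene. The muscle steps were a Pax3/Pax7 step (muscle and dermomyotome progenitors), a Myod1 step (committed myoblasts), a Myog step (differentiating myocytes) and an Acta1 step (Myog with at least 10 UMIs of skeletal actin). The sclerotome gate (Pax1, Pax9, Nkx3-2) takes the progenitors of vertebrae and ribs. Cells that passed gates of different kinds were left out (3.31% and 5.75% of kept cells), and 39.5% and 34.6% of kept cells passed no gate. A cell that passed several of the cartilage, Scx, sclerotome and dermal rules was kept and went to the first of these, in that order. A level is the gene's UMIs in a gate per 1000000 UMIs of that gate, and the values in parentheses after it are its exact Poisson 95% bounds. Fewer cells of a kind and less RNA per cell cannot be told apart in such a sum.

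Markers that a gate did not use were read for the Acta1 step, the newest somites, sclerotome, cartilage, dermal cells and the gate set by Scx. They were also read for lateral plate, neural progenitors, neurons and endothelial cells. The other gates, among them the Pax3/Pax7, Myod1 and Myog steps, were not checked in this way. The Pax3/Pax7 step takes cells with Pax3 or Pax7 that passed no other gate. Pax3 cells of the dorsal neural tube that missed the neural gates can therefore enter it. Its mix of cells was not compared between the ages, which limits its differences between ages below. The Acta1 step had the highest level of Des, Myl1, Tnnt1, Myh3, Chrna1 and Mymk of the E11.5 gates. Mymx was highest in the Myog step, Myf5 in the Myod1 step and Met in motor neurons. The endothelial gate was the highest for Kdr, Flt1 and Sox17, and the cartilage gate for Col2a1 and Sox9. Neural progenitors were highest for Fabp7 at both ages and for Ptprz1 at E11.5. Ptprz1 at E9.5 was highest in the newest somites, and Zic1 in the Myog step at E9.5 and in cartilage at E11.5. The newest somites led for Meox1 and Notch1, but neurons led for Dll1 and motor neurons for Dll3. Sclerotome was the highest gate for Uncx and Fbn2 at E9.5 and for Foxc2 at E11.5. It was behind the newest somites for Foxc2 and Tbx18 at E9.5, behind cartilage for Uncx and Fbn2 at E11.5, and behind lateral plate for Tbx18 at E11.5. The lateral plate gate was the highest for Tbx5 and Bmp4 at E9.5, but at E11.5 it was the highest for none of Tbx5, Bmp4 and Osr1, of which the first 2 were highest in dermal cells. The gate set by Scx, a factor of tendon progenitors, had Tnmd, a gene of mature tendon, at a level of only 1.52, and it is called the Scx gate here. The nephric gate was read only by genes of its own list, and it went against its name at E11.5. The level of Pax2 was 98.5 at E9.5 and 2.97 at E11.5, Pax8 was 140 and 5.93, and Lhx1 was 197 and 4.94. Emx2, Osr1 and Wt1 were higher at E11.5. The nephric gate is called the Osr1/Emx2/Wt1 gate at that age, and its values at both ages belong to different cells. Gates of 25 to 49 cells were added after the data were seen, and each is given with its number of cells.

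**Figure D1:**
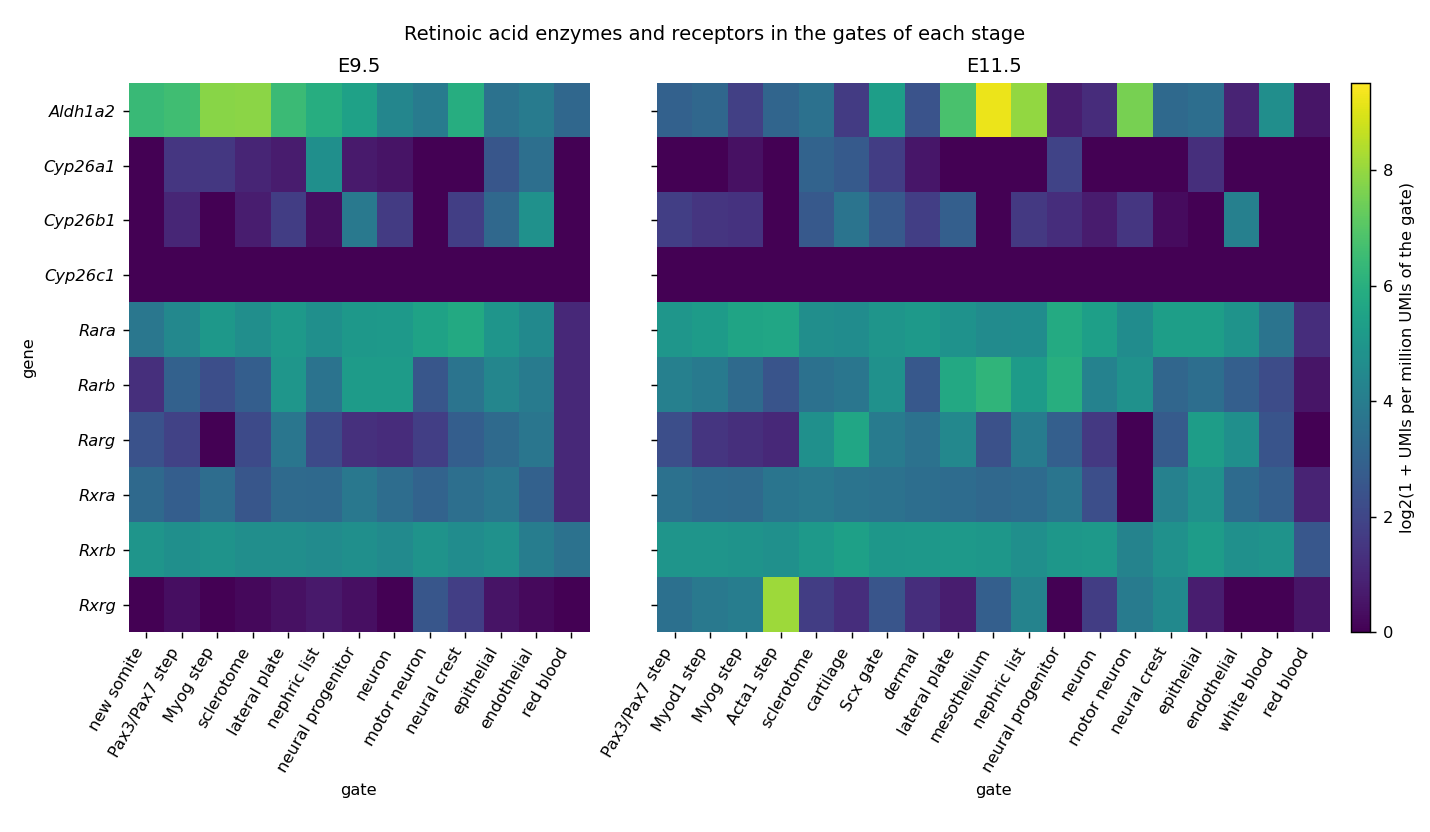
Level of each of the 10 genes (rows) in each gate (columns) of E9.5, left, and E11.5, right, drawn as a colour for log2 of 1 plus the UMIs per 1000000 UMIs of the gate; the Osr1/Emx2/Wt1 gate is the column of the nephric list at E11.5. Aldh1a2 stands out in the E9.5 sclerotome and the E11.5 mesothelium and Osr1/Emx2/Wt1 gates, Rxrg in the E11.5 Acta1 step, while Rara and Rxrb show in nearly every column apart from red blood for Rara. Mesothelium, with 10 cells at E9.5, has no column at that age.

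Aldh1a2 (ENSMUSG00000013584, chr9:71215789-71296243 in GRCm38, plus strand), the main enzyme of retinoic acid synthesis in the trunk, had 12649 UMIs in kept cells at E9.5 and 4844 at E11.5, a level of 90.6 (89.0 to 92.2) and 37.3 (36.3 to 38.4). At E9.5 its level was 232 (221 to 244) in the sclerotome gate, 94.4 (90.0 to 98.9) in the Pax3/Pax7 step, 89.0 (81.6 to 96.9) in lateral plate cells and 86.2 (65.9 to 111) in 46 cells of the newest somites. The sclerotome gate was 1.30 higher (1.2 to 1.4) than the Pax3/Pax7 step on the log2 scale. It was the 1 gene past a 2-fold difference among the 5 members with at least 100 UMIs in that pair of gates, while 1.54% of all 9375 genes tested were that much higher in sclerotome. Only 26 cells made up the E9.5 Myog step, the first myocytes, and these held 117 UMIs of Aldh1a2, a level of 224 (186 to 269) whose bounds overlapped those of sclerotome.

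Apart from lateral plate, the gates outside the somite were lower in Aldh1a2 at E9.5: 59.9 (52.2 to 68.5) in the nephric gate, 59.1 (53.8 to 64.9) in neural crest, 42.2 (39.9 to 44.6) in neural progenitors and 19.6 (14.4 to 26.2) in neurons. The bounds of the nephric and neural crest gates overlapped, and those of neural progenitors and neurons did not. Endothelial cells at 14.4 (11.3 to 18.0) and red blood cells at 8.10 (4.43 to 13.6), where free RNA from other cells is also counted, lay near the bottom of the order, with epithelial cells at 10.8 (7.01 to 16.0). At least 1 UMI of Aldh1a2 was found in 53.9% of Pax3/Pax7 cells, against 8.28% of endothelial and 4.35% of red blood cells. The median depth of those gates was 15216, 13714.5 and 14471 UMIs, and after thinning each cell to 5000 UMIs the shares were 28.5%, 5.77% and 3.77%.

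The neural progenitors of E9.5 were not alike. They were split after the data were seen by Msx3 or Pax3, which mark the dorsal neural tube, and Nkx6-1 or Olig2, which mark the ventral. The split put 762 cells with only dorsal markers beside 862 cells with only ventral markers. The level of Aldh1a2 was 64.9 in the dorsal cells and 13.1 in the ventral cells, 2.31 lower on the log2 scale in the ventral cells (2.05 to 2.57). In 111 cells with markers of both kinds it was 65.8 (56.2 to 76.5), and in 387 cells with neither it was 38.4 (33.0 to 44.4). Pax3 is also a gene of the dermomyotome. Rarb, in the same cells, was 40.8 in the dorsal and 36.9 in the ventral group, a log2 difference of -0.15 (-0.34 to 0.05).

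At E11.5 the order of the gates with a level was another. Mesothelium and the Scx gate were too small for a level at E9.5 and are missing from the order of that age. They held 10 cells with 44 UMIs of Aldh1a2 among 153387 UMIs, and 18 cells with 29 among 290175. Aldh1a2 had a level of 602 (534 to 675) in 28 mesothelial cells, the lining of the body cavity, of which 25 had a UMI, and of 247 (218 to 280) in the 67 cells of the Osr1/Emx2/Wt1 gate. Lateral plate cells stood at 109 (92.6 to 128), near their E9.5 value, and the Scx gate at 39.2 (36.9 to 41.6). The other somite gates were far below: sclerotome 10.7 (7.67 to 14.5), Myod1 step 7.92 (5.22 to 11.5), Acta1 step 7.53 (4.6 to 11.6), Pax3/Pax7 step 6.77 (4.84 to 9.22), dermal cells 4.41 (2.88 to 6.47), Myog step 2.50 (1.37 to 4.19) and cartilage 2.14 (1.36 to 3.21). The bounds of sclerotome, the Myod1 step, the Acta1 step and the Pax3/Pax7 step overlapped. Red blood cells at 0.45 and endothelial cells at 0.91 had 1 UMI each.

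Between the ages, Aldh1a2 was lower at E11.5 in the Pax3/Pax7 step by 3.80 on the log2 scale (bounds -4.29 to -3.35), from 1745 UMIs in 1050 cells to 40 UMIs in 362 cells, and in the sclerotome gate by 4.44 (bounds -4.93 to -3.99), from 1644 to 41 UMIs. In the Pax3/Pax7 step 4.5% of 9508 genes were more than 2-fold lower at E11.5, and in sclerotome 3.31% of 7940 genes. Cells that passed the cartilage or Scx rule were not counted as sclerotome. The cartilage and Scx gates held 3 and 18 cells at E9.5 but 786 and 1907 at E11.5. The sclerotome gate can thus hold a different mix of cells at each age, which limits its differences between ages here and below. The effect of this order was not tested. Neural crest was 2.79 lower (bounds -3.29 to -2.33), and neural progenitors 5.92 lower (bounds -11.23 to -3.44) with 1 UMI left in 138 cells. With the UMI minimums of the muscle and Scx gates set per 10000 UMIs of the cell, the 3 differences in the Pax3/Pax7 step, sclerotome and neural progenitors were -3.03, -3.78 and -2.13. The Myog step was 6.49 lower (bounds -7.40 to -5.68), a comparison that rests on the 26 early cells. The opposite direction was seen in the nephric gate, 2.04 higher (1.78 to 2.32), where the cells differ as said above and where stricter gates gave 1.25, and lateral plate differed by 0.30 (0.03 to 0.56). Of 8 gates with at least 100 UMIs of Aldh1a2 at both ages together, 5 were more than 2-fold lower, 2 more than 2-fold higher and 1 neither. Of all genes, 5.64% were that much lower in neural progenitors, 3.11% in the Myog step and 3.91% in neural crest, and 4.99% that much higher in the nephric gate and 16.8% in the motor neuron gate.

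In some E11.5 gates few cells held nearly all of the Aldh1a2. In sclerotome, 5 cells carried 87.8% of the 41 UMIs and the highest had 16. Motor neurons, a class in which Aldh1a2 is known at limb levels, had a level of 187 (153 to 227), 3.70 above E9.5 on the log2 scale (2.53 to 5.18), but 103 UMIs lay in 6 of 49 cells and 98.1% of them in 5 cells, the highest with 38. The Scx gate was spread wider, with 1057 UMIs in 221 of 1907 cells and 10.9% of them in the top 5 cells. Of all Aldh1a2 UMIs at E11.5, 21.8% were in the Scx gate, 35.9% in ungated cells and 20.1% in cells left out because they passed gates of different kinds. The same groups held 20.8%, 26.9% and 8.70% of the UMIs of all genes, so the share of the Scx gate was near its size.

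The ungated cells held 45.6% of the Aldh1a2 UMIs at E9.5 and 31.6% of the UMIs of all genes. Of these cells 2580 had a UMI of Meox1, a gene of the paraxial mesoderm, and 1313 had none, a split added after the data were seen. The level was 150 with Meox1 and 82.7 without it, 0.86 higher with it on the log2 scale (0.76 to 0.96). At E11.5 both values were lower and closer, 56.5 in 788 cells with Meox1 and 47.4 in 2536 cells without it.

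**Figure D2:**
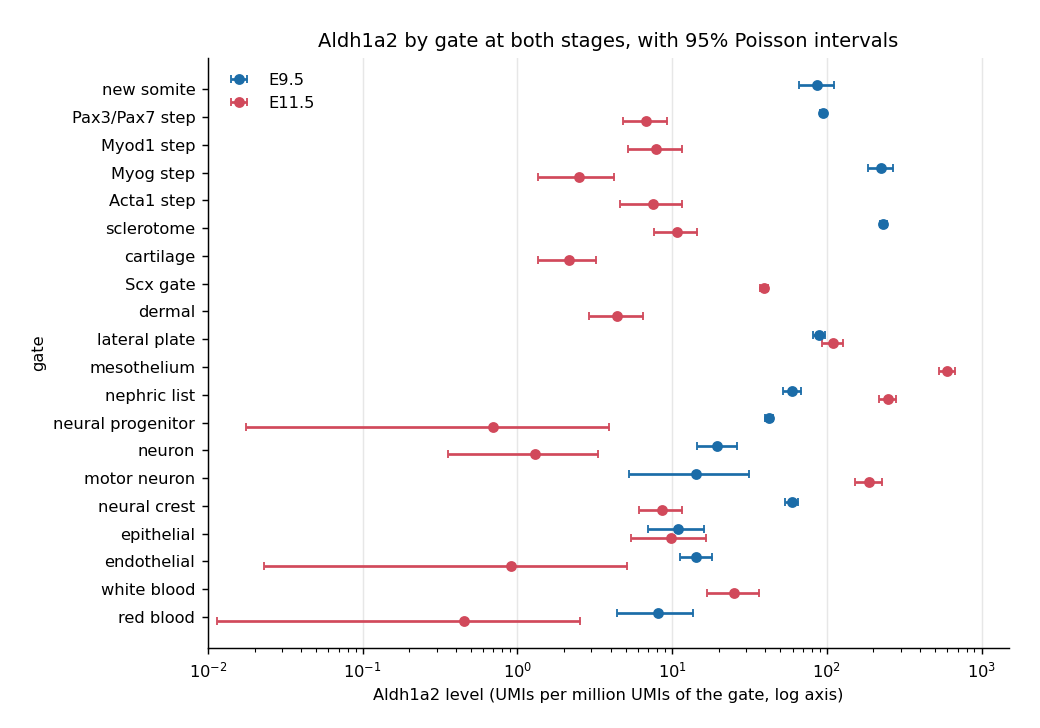
Level of Aldh1a2 (UMIs per 1000000 UMIs of the gate, log axis) in each gate for both ages; points are the sums over each gate's cells and bars the exact Poisson 95% bounds. The Pax3/Pax7 step and sclerotome lie at 94.4 and 232 at E9.5 and at 6.77 and 10.7 at E11.5, while the Osr1/Emx2/Wt1 gate and mesothelium lie at 247 and 602 at E11.5. Mesothelium, with 10 cells at E9.5, has no point at that age.

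The Cyp26 enzymes were sparse. Cyp26a1 had 392 UMIs in kept cells at E9.5 and 196 at E11.5, Cyp26b1 752 and 513, and Cyp26c1 7 and 0. Cyp26a1 and Cyp26c1 are neighbours on chromosome 19, at chr19:37697798-37701536 and chr19:37685581-37693398 in GRCm38. All 7 UMIs of Cyp26c1 were in 7 ungated cells. Its 0 UMIs at E11.5 allow a level of up to 0.02 over all kept cells.

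The start of Cyp26a1 is known for elements that bind RAR and RXR, and its promoter is therefore shown, as given by RefSeq for GRCm38.p6. The 250 bases before the start of transcription are chr19:37697558-37697807, plus strand, and the capitals mark a DR5, a pair of half-sites with 5 bases between them, which lies on the reverse strand here, 32 to 16 bases before the start.

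Cyp26a1: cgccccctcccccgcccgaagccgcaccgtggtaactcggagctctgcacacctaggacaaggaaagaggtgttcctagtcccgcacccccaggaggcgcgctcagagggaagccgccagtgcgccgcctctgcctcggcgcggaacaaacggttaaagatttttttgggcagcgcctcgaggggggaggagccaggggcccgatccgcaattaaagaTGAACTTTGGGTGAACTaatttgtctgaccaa

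Promoters of all 10 genes, 17 in number, were read on both strands for DR1, DR2 and DR5. A DR5 was present in the promoters of Cyp26a1 and Rarb and in 0.0883% of all 32851 promoters of that length, and no DR1 or DR2 (0.164% and 0.174% of all promoters) was found in the members. A match describes these letters in this window and does not show binding.

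Cyp26a1, which clears retinoic acid in the tail bud, was highest at E9.5 in the nephric gate, with 91 UMIs in 49 of 250 cells and a level of 25.6 (20.6 to 31.4). Endothelial cells followed at 10.2 (7.67 to 13.3), then epithelial cells at 4.77 (2.38 to 8.53) and the Pax3/Pax7 step at 1.84 (1.27 to 2.57). The nephric gate did not overlap any other, and the bounds of endothelial and epithelial cells overlapped. Cyp26a1 had no UMI in neural crest, in the newest somites or in red blood cells.

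At E11.5 Cyp26a1 had no UMI in the Osr1/Emx2/Wt1 gate, the endothelial gate or the Pax3/Pax7 step. Set against a floor of 3 counts per gate, these levels were 8.63-fold, 3.74-fold and 3.62-fold lower than at E9.5. The upper Poisson bounds of these 0 values are wider than the floor, at levels of 3.65, 3.36 and 0.62. The first fold sets the Osr1/Emx2/Wt1 gate against the nephric gate, which held different cells, so it is not a change within 1 kind of cell. Most of the UMIs were now in the sclerotome, cartilage and Scx gates. There were 27 in sclerotome, a level of 7.04 (4.64 to 10.2), 59 in cartilage, 5.49 (4.18 to 7.08), and 62 in the Scx gate, 2.30 (1.76 to 2.95). In the Scx gate 48.4% of them lay in 5 cells. Neural progenitors, with 4 UMIs, were at 2.79 (0.76 to 7.13), with bounds that overlapped those of all these gates. The bounds of sclerotome and cartilage overlapped. Sclerotome had 7 UMIs at E9.5, and the E11.5 level was 2.83 higher on the log2 scale (1.60 to 4.28), from under 100 UMIs in all. With the same floor, sclerotome was 13.9-fold higher than the Pax3/Pax7 step at E11.5.

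Cyp26b1 (chr6:84571414-84593908 in GRCm38, minus strand), which clears retinoic acid in limb bud and hindbrain, was highest in endothelial cells at E9.5, with 143 UMIs in 60 of 338 cells and a level of 27.0 (22.8 to 31.8). Neural progenitors followed at 13.2 (12.0 to 14.6), with 401 UMIs in only 86 of 2122 cells, 35 of which had 5 or more. The share of cells with a UMI was thus 17.8% and 4.05%, against 1.62% in the Pax3/Pax7 step. It was 0 in red blood cells, where a floor of 3 counts is a share of 2.61%. After thinning to 5000 UMIs the first 3 shares were 8.65%, 2.80% and 0.48%. Neural progenitors were 3.69 higher than the Pax3/Pax7 step on the log2 scale (3.03 to 4.43). Among the 6 members measured in that pair, Cyp26b1, Rarb and Rxra were more than 2-fold higher in neural progenitors and Aldh1a2 more than 2-fold lower, against 5.74% and 4.61% of all genes.

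At E11.5 Cyp26b1 had 2 UMIs in neural progenitors, 3.25 lower on the log2 scale than at E9.5 (bounds -6.30 to -1.39). Endothelial cells had 18 UMIs in 5 of 68 cells, the highest with 11, and a level of 16.4 (9.71 to 25.9). That level was below the E9.5 value, but with thinned cells the difference between ages had the other sign. Cartilage had 126 UMIs spread over 103 of 786 cells, never more than 3 in a cell, and a level of 11.7 (9.77 to 14.0). This was 1.17 higher than sclerotome on the log2 scale (0.48 to 1.93), the 1 call among the 6 members measured there, where 0.793% of all genes were that much higher. The Scx gate stood at 5.30 (4.47 to 6.25). The muscle steps were low, from 2.37 (1.30 to 3.98) in the Pax3/Pax7 step to 0 UMIs in the Acta1 step, which allow a level of up to 1.39. Sclerotome itself was 5.21 (3.19 to 8.05) at E11.5 and 0.71 (0.23 to 1.65) at E9.5.

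Among the E9.5 endothelial cells, 13 had UMIs of both Cyp26a1 and Cyp26b1, where the product of their shares gives 5.15 cells. The level of Cyp26a1 was 31.3 in endothelial cells with Cyp26b1 and 4.55 in those without it. The cells with Cyp26b1 were also deeper, at a median of 17240 against 12909 UMIs. Of 454 such pairs of members over 25 gates and ages, the exact bounds of the ratio lay above 1 for 16 and below 1 for 0. Pairs of other genes were not counted, so there is no background share to set beside these 16. The part of cell depth in the count was not tested.

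**Figure D3:**
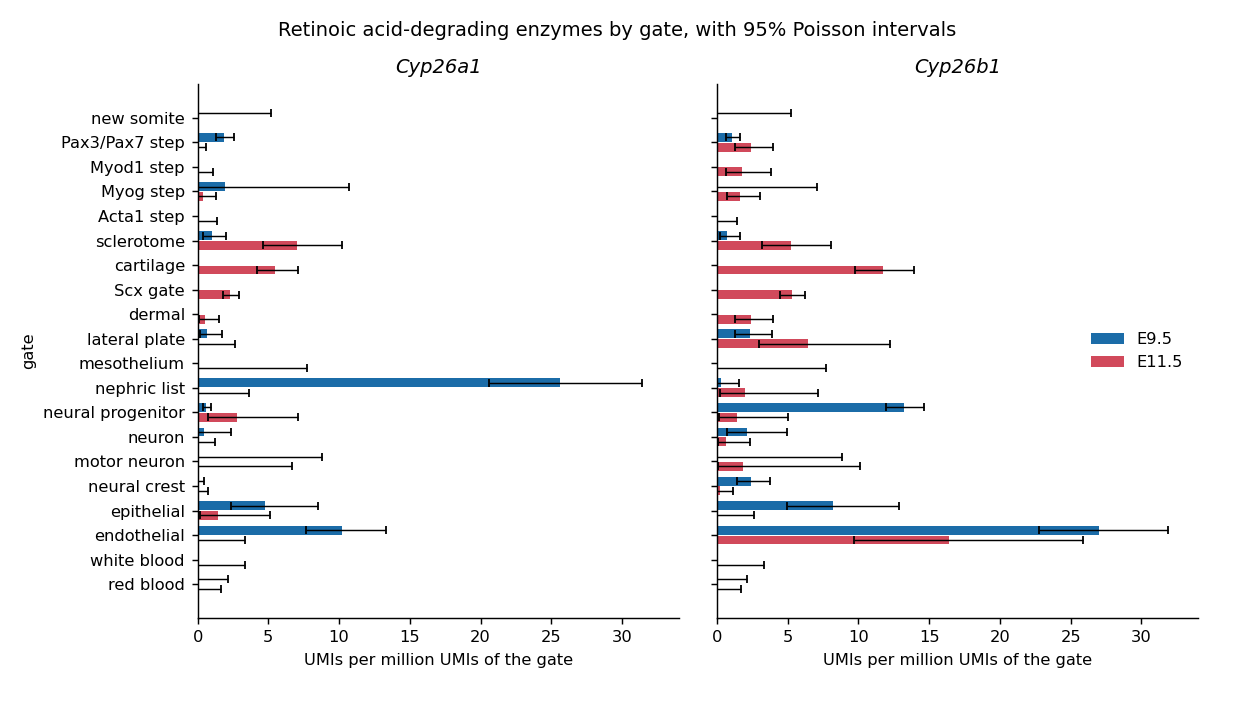
Levels of Cyp26a1 and Cyp26b1 (UMIs per 1000000 UMIs of the gate) as bars by gate at E9.5 and E11.5, with exact Poisson 95% bounds as whiskers. Cyp26a1 is highest in the E9.5 nephric gate at 25.6, and Cyp26b1 is highest in E9.5 endothelial cells at 27.0. The Osr1/Emx2/Wt1 gate of E11.5, drawn in the row of the nephric list, holds other cells and has 0 UMIs of Cyp26a1.

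Rara, the receptor known for broad expression, was found in every gate. At E9.5 its level ran from 12.7 in 46 newest-somite cells to 53.1 (48.0 to 58.5) in neural crest, leaving out red blood at 1.16, and the Pax3/Pax7 step stood at 20.7 (18.6 to 22.8). At E11.5 it was 30.5 (26.2 to 35.3) in the Pax3/Pax7 step, 36.1 (29.98 to 43.0) in the Myod1 step, 45.7 (40.3 to 51.7) in the Myog step and 48.6 (40.6 to 57.7) in the Acta1 step. The first and the last of these differed by 0.67 on the log2 scale (0.33 to 1.01), or 1.53 with cells thinned to 5000 UMIs, the Myog step and the Acta1 step by 0.09 (-0.23 to 0.40). None of its 10 comparisons between ages passed a 2-fold difference. Of all genes, the share past it in either direction was 12.9% in the Pax3/Pax7 step, 13.4% in the Myog step, 12.6% in sclerotome, 13.3% in lateral plate, 9.78% in the nephric gate, 16.6% in neural progenitors, 27.5% in neurons, 14.3% in neural crest, 9.56% in epithelial and 8.54% in endothelial cells.

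Within the cells of the Myog and Acta1 steps, Rara was 52.8 (46.9 to 59.3) in 297 cells with a UMI of Mymx, which encodes the fusion peptide myomixer, and 35.0 (28.4 to 42.5) in 164 cells without one. The median depth was 16680 and 17305 UMIs, and the thinned levels were 69.5 and 45.4.

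Rarb is known for a retinoic acid response element in its promoter. The letters of its 250 bases before the start are shown from RefSeq, GRCm38.p6, chr14:16575477-16575726, minus strand. The gene spans chr14:16430839-16819156 in GRCm38, so this start, the 1 that was read for Rarb, lies inside it. The capitals mark its DR5, 53 to 37 bases before the start.

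Rarb: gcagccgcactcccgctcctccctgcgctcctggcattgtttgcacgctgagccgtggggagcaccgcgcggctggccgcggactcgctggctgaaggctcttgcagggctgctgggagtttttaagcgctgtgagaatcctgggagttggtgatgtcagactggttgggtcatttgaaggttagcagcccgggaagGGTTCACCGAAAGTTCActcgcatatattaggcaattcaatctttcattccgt

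At E9.5 Rarb was highest in neural progenitors at 36.4 (34.3 to 38.6), neurons at 36.3 (29 to 44.9) and lateral plate at 30.7 (26.4 to 35.5). The bounds of all 3 overlapped. Epithelial cells at 19.5 and endothelial cells at 14.4 lay between, and the somite gates were low, with the Pax3/Pax7 step at 6.76 (5.63 to 8.06) and sclerotome at 6.21 (4.52 to 8.34). Neural progenitors exceeded the Pax3/Pax7 step by 2.43 on the log2 scale (2.16 to 2.71). Aldh1a2 had the opposite order in this pair of gates, with a log2 difference of -1.16 (-1.27 to -1.06) for neural progenitors over the Pax3/Pax7 step.

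At E11.5 the highest levels of Rarb were 73.1 (50.9 to 102) in 28 mesothelial cells, 61.3 (49.2 to 75.5) in neural progenitors, 52.1 (40.9 to 65.5) in lateral plate and 36.6 (25.8 to 50.4) in the Osr1/Emx2/Wt1 gate, with bounds that overlapped from each to the next. The mesothelial value rests on 35 UMIs in 12 cells, with 71.4% of them in 5 cells. Mesothelium, lateral plate and the Osr1/Emx2/Wt1 gate were also the high gates of Aldh1a2, whereas neural progenitors had 1 UMI of it. Along the muscle steps Rarb was 16.4 (13.3 to 20.0) in the Pax3/Pax7 step, 13.8 (10.1 to 18.3) in the Myod1 step, 8.75 (6.47 to 11.6) in the Myog step and 4.52 (2.33 to 7.89) in the Acta1 step. The Acta1 step was 1.86 lower than the Pax3/Pax7 step on the log2 scale (bounds -2.86 to -0.99), with 12 UMIs in its 146 cells.

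Between the ages Rarb was 1.28 higher at E11.5 in the Pax3/Pax7 step (0.88 to 1.67) and 0.75 higher in neural progenitors (0.42 to 1.07). In that step it and Aldh1a2 were the 2 calls among 5 members measured, where 8.36% of all genes were more than 2-fold higher. Neurons had the opposite sign, 1.05 lower (bounds -1.57 to -0.54) where 9.61% of all genes were more than 2-fold lower, but that value depended on how cells were weighted: with each cell counted equally it was 0.042. Within the Scx gate of E11.5, 94 cells had both Rarb and Aldh1a2, where the product of the shares gives 57.7. The level of Aldh1a2 was 67.9 in Scx-gate cells with Rarb and 27.8 in those without it, at median depths of 14396 and 12752 UMIs.

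Rarg (chr15:102234938-102257517 in GRCm38, minus strand), the receptor known in cartilage and skin, had 693 UMIs in the E9.5 library and 2120 in the E11.5 library. In sclerotome it went from a level of 3.39 (2.17 to 5.04) to 26.1 (21.2 to 31.7), 2.94 higher on the log2 scale (2.29 to 3.65), the 1 member more than 2-fold higher of 4 measured, with 9.26% of all genes that much higher. Cartilage at E11.5 was at 48.2 (44.1 to 52.5), with 518 UMIs in 362 of 786 cells, which is 0.89 above sclerotome (0.57 to 1.21). With stricter gates that difference had the other sign, -0.36. Epithelial cells, surface ectoderm among them, were at 8.67 (5.29 to 13.4) and 38.1 (28.6 to 49.7) at E9.5 and E11.5.

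Muscle cells were low in Rarg at both ages. The Pax3/Pax7 step was at 2.65 (1.96 to 3.5) and 3.90 (2.47 to 5.84), a log2 difference of 0.56 (-0.23 to 1.30) that includes 0, and the Myog step at 1.43 and the Acta1 step at 1.13 held 8 and 3 UMIs. At E11.5 sclerotome was 2.74 above the Pax3/Pax7 step (2.08 to 3.46), or 3.99 with stricter gates, and of the 5 members measured only Rarg passed a 2-fold difference there, as did 3.32% of all genes in that direction. At least 1 UMI was found in 28.4% of sclerotome cells, against 5.80% of Pax3/Pax7 cells and 0 of 125 red blood cells; thinned to 5000 UMIs the first 2 were 12.8% and 2.26%. Endothelial cells were no background for Rarg, with a UMI in 30.9% of them.

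**Figure D4:**
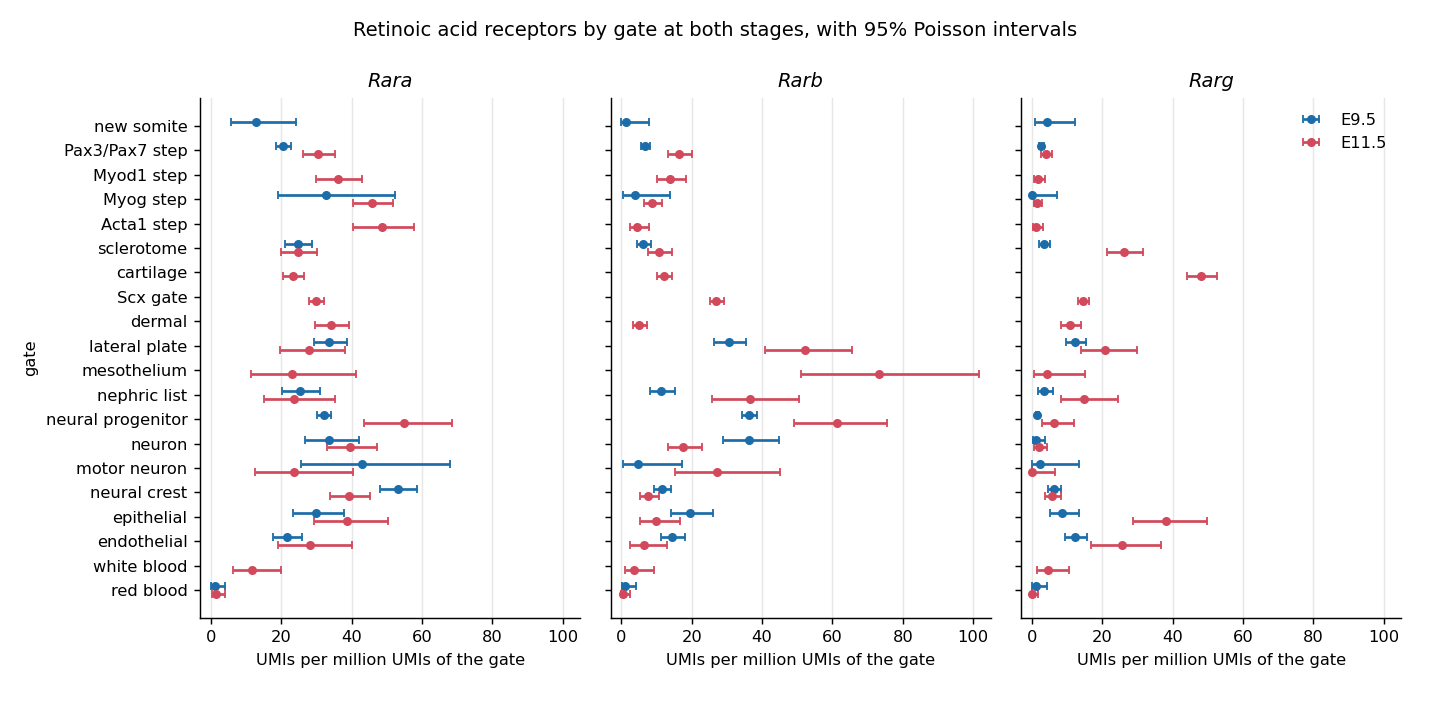
Levels of Rara, Rarb and Rarg (UMIs per 1000000 UMIs of the gate) by gate at E9.5 and E11.5, with exact Poisson 95% bounds. Rarg is highest in E11.5 cartilage at 48.2, Rarb in 28 mesothelial cells at 73.1 and neural progenitors at 61.3, and Rara lies within a narrower range of gates than either, apart from the blood gates.

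Rxra and Rxrb are the RXR genes known for broad expression. The level of Rxrb lay between 15.3 in endothelial cells and 29.7 in the newest somites at E9.5 and between 18.2 in 49 motor neurons and 41.6 (37.8 to 45.6) in cartilage at E11.5, leaving out red blood at 11 and 5.0. None of the 10 comparisons of Rxrb between ages passed a 2-fold difference. Along the E11.5 muscle steps Rxrb was 29.8, 30.2, 28.4 and 26.4, and the bounds of all 4 overlapped.

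Rxra had a level of 4.80 to 12.9 at E9.5, with red blood at 1.16, and was highest in neural progenitors, 1.05 above the Pax3/Pax7 step on the log2 scale (0.75 to 1.37). At E11.5 epithelial cells were at 26.8 (19 to 36.8), neural crest at 17.1 (13.6 to 21.2), and the muscle steps between 8.75 and 12.0. The Acta1 step differed from the Pax3/Pax7 step by 0.18 (-0.49 to 0.81), an interval that includes 0, and by 0.96 with each cell counted equally. No UMI of Rxra was found in 49 motor neurons at E11.5, which allow a level of up to 6.70.

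Rxrg (ENSMUSG00000015843, chr1:167598384-167639623 in GRCm38, plus strand), the RXR known for restricted expression in muscle, pituitary and parts of the nervous system, had the most uneven pattern. It had only 64 UMIs in kept cells at E9.5 and 1635 at E11.5. The Acta1 step held 44.2% of the latter and 2.05% of all UMIs. RefSeq lists 2 starts for Rxrg, and the one further into the gene has 2 E-boxes, the sites CANNTG that MYOD1 and MYOG can bind, within its 250 bases, while the other has none. It is shown from GRCm38.p6, chr1:167618015-167618264, plus strand, with the E-boxes in capitals, 84 to 79 and 61 to 56 bases before the start. E-boxes are common: 66.2% of all promoters of this length have one, and these counts do not tell which start was used.

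Rxrg: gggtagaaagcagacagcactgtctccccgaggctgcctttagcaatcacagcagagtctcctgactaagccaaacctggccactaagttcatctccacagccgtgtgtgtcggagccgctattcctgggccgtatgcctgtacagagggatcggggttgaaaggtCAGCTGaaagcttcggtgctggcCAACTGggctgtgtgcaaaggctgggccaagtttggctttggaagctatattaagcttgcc

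Along the E11.5 muscle steps Rxrg had a level of 10.3 (7.90 to 13.3) in the Pax3/Pax7 step, 13.2 (9.63 to 17.7) in the Myod1 step, 15.2 (12.1 to 18.8) in the Myog step and 272 (253 to 293) in the Acta1 step. The bounds of the first 3 overlapped, and the last stood apart from all of them. It was 4.72 above the Pax3/Pax7 step on the log2 scale (4.34 to 5.12) and 4.16 above the Myog step (3.84 to 4.51), or 3.56 with each cell counted equally, whereas the Myog step was 0.55 above the Pax3/Pax7 step (0.06 to 1.05).

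Between the Acta1 and Pax3/Pax7 steps 4 members could be measured, and Rxrg was the 1 that was more than 2-fold higher and Rarb the 1 more than 2-fold lower, beside 11% and 21.7% of 7569 genes. Their median log2 difference was 0.25, and that of all genes was -0.31. Between the Acta1 and Myog steps 1 of 3 members was more than 2-fold higher, beside 9.82% of all genes, and none was lower, beside 13%. None of 5 members passed that difference between the Myog and Pax3/Pax7 steps, where 8.65% of all genes did in either direction, and none of 4 between the Myod1 and Pax3/Pax7 steps, where 0.501% did.

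The Rxrg of the Acta1 step was spread over its cells. A UMI was found in 111 of 146 cells, 76.0% (68.3% to 82.7%, Clopper-Pearson), with a median of 6 UMIs in those cells, at most 20 in a cell and 12.4% of the total in the top 5 cells. The share was 0 of 68 endothelial cells, which allows up to 4.41%, and 0.80% of red blood cells, at median depths of 17259.5, 12891 and 16812 UMIs. Thinned to 5000 UMIs, 62.5% of the Acta1 step and 4.80%, 5.24% and 7.05% of the Pax3/Pax7, Myod1 and Myog steps had a UMI.

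Cells of the Myog and Acta1 steps were also ordered by their own UMIs of Acta1, the skeletal muscle actin. The level of Rxrg was 13.8 (10.8 to 17.4) in 287 cells with 0 to 2 UMIs of Acta1, 33.0 (17.6 to 56.4) in 28 cells with 3 to 9 and 107 (81.4 to 137) in 42 cells with 10 to 29. It was 263 (228 to 303) in 47 cells with 30 to 99 and 345 (315 to 378) in 57 cells with 100 or more. Each bin lay above the one before it without overlap. The cells with 100 or more were also deeper, at a median of 22294 UMIs against 16816 in the first bin, and after thinning the levels were 15.9, 38.1, 117, 310 and 372. Mymx, the gene of myomixer, went another way, with levels of 419, 1069, 987, 424 and 106 over the same bins.

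In the Acta1 step Rxrg was 218 (198 to 240) in 94 cells with a Mymx UMI and 403 (360 to 450) in 52 cells without one, 0.89 higher without Mymx on the log2 scale (0.67 to 1.10). In the Myog step the corresponding values were 15.4 and 14.9, a difference of -0.05 (-0.73 to 0.62).

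**Figure D5:**
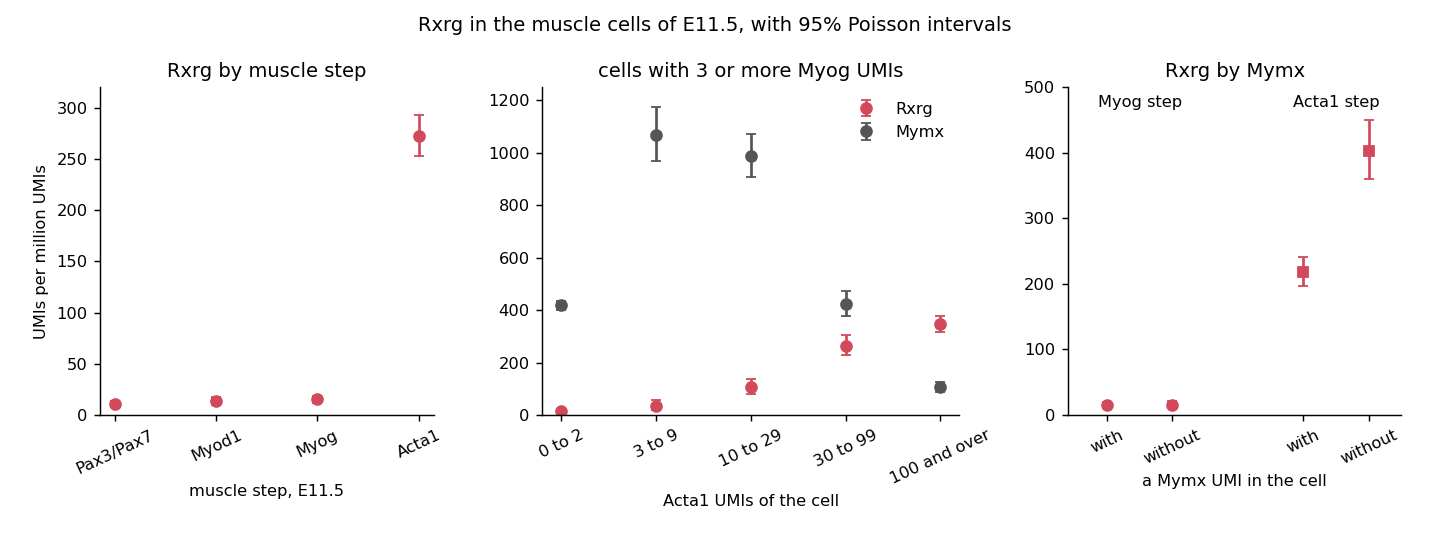
Level of Rxrg (UMIs per 1000000 UMIs of the group) along the E11.5 muscle steps and over bins of Acta1 UMIs per cell in the Myog and Acta1 steps, there beside Mymx, and in cells with and without a Mymx UMI, with exact Poisson 95% bounds. Rxrg stands between 10.3 and 15.2 in the first 3 steps and at 272 in the Acta1 step, goes from 13.8 to 345 over the bins, and is 218 with and 403 without Mymx in the Acta1 step.

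Outside muscle Rxrg was highest at E11.5 in neural crest, which includes the glia of peripheral nerves, and the bounds of the Osr1/Emx2/Wt1 gate at 17.8 (10.6 to 28.1) overlapped it. Neural crest had 18 UMIs and a level of 2.37 (1.40 to 3.75) at E9.5 and 104 UMIs in 71 of 232 cells and 21.7 (17.7 to 26.2) at E11.5. It was 3.19 higher at E11.5 on the log2 scale (2.46 to 4.00). Among the 6 members measured in neural crest, Rxrg was the 1 more than 2-fold higher and Aldh1a2 the 1 more than 2-fold lower, beside 10.4% and 3.91% of all genes. The Acta1 step had no UMI of Sox10, whose level in neural crest was 248. The whole list of 7 neural crest genes had 5 with a UMI in the Acta1 step and a summed level of 112 against 1256 in neural crest. Of the 112, 91.1 was Erbb3, which stood at 64.1 in the Myog step. This list, Sox10 included, sets the neural crest gate, and cells that passed both gates were left out. The contrast is thus largely fixed by the gating and does not tell whether the Acta1 step holds neural crest cells.

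At E9.5 the muscle steps had few UMIs of Rxrg. The Pax3/Pax7 step had 5 UMIs in 1050 cells at E9.5 and 61 in 362 cells at E11.5, 5.26 higher on the log2 scale (3.95 to 6.93), from under 100 UMIs in all. The 26 cells of the E9.5 Myog step had 0 UMIs. Against the floor of 3 counts, a level of 5.76, the E11.5 Myog step was 2.64-fold higher. The upper Poisson bound of this 0 is wider, at 7.08. Only 4 cells passed the Acta1 gate at E9.5, and they held 3 of the 64 UMIs of Rxrg.

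Of 43 other genes of the pathway, read with the same thresholds, 29 could be measured in the Pax3/Pax7 step at both ages, and 4 were more than 2-fold higher and 10 more than 2-fold lower at E11.5, where 8.36% and 4.5% of all genes were. Their median log2 difference was -0.06 beside 0.03 for all genes. Of the 10 lower genes, 7 were genes known to respond to retinoic acid and 1 was Fgf8, both read below. Only 1 synthesis gene and 1 transport gene made up the rest, and no cofactor or RXR partner was lower. Rdh10, which makes the retinaldehyde that ALDH1A2 uses, was 23.5 at E9.5 and 4.06 at E11.5, a log2 difference of -2.53, in the direction of Aldh1a2. Dhrs3, which turns retinaldehyde back into retinol, was 7.30 and 21.3, 1.55 higher. The retinoic acid carrier Crabp2 was 523 and 217, 1.27 lower. The bounds of each of these pairs of levels did not overlap.

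All 12 listed genes known to respond to retinoic acid were measured in the Pax3/Pax7 step. There 7, the same as counted above, were more than 2-fold lower at E11.5 and 5 neither, where 4.5% of all genes were that much lower. In sclerotome 1 of 10 measured was lower and none higher, where 3.31% and 9.26% of all genes were. In neural progenitors 3 of 12 were higher and 3 lower, where 11% and 5.64% of all genes were. The values that follow are those of the Pax3/Pax7 step. Hoxb4 was 79.2 and 12.9, 2.62 lower on the log2 scale. With each 0 set at the floor of 3 counts, Hoxb1, from 330 UMIs to 0, was 35.1-fold lower. Cdx1, from 374 UMIs to 0, was 39.8-fold lower. Fgf8, the opposing signal, was 27.5 and 2.71, 3.35 lower. Hox levels also differ along the trunk, and the age of the somites and their place along the trunk cannot be told apart here.

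The other gates differed in which pathway genes moved. In sclerotome 4 of 25 measured genes were more than 2-fold higher and 1 lower, where 9.26% and 3.31% of all genes were, with a median of 0.19 beside 0.10 for all genes; Dhrs3 went from 5.51 to 24.8, 2.17 higher, and Rdh10 stood at 9.04 and 15.1. In neural progenitors 7 of 29 were higher and 8 lower, where 11% and 5.64% of all genes were, with a median of 0.15 beside 0.13; Dhrs3 was 4.93 higher, from 1.95 to 59.2, and Crabp1, a carrier of retinoic acid, 4.53 lower, from 882 to 38.3. In neural crest 5 of 25 were higher and 5 lower, where 10.4% and 3.91% of all genes were, with a median of 0.10 beside 0.06. There Aldh1a3, the synthesis enzyme of eye and nasal tissue, was 0.92 at E9.5 and 37.1 at E11.5, 5.33 higher, and Crabp1 was 2518 and 40.8, 5.95 lower.

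From the Pax3/Pax7 step to the Acta1 step at E11.5, 2 of 20 measured pathway genes were more than 2-fold higher and 9 lower, where 11% and 21.7% of all genes were. Their median was -0.80 beside -0.31 for all genes. The coactivator gene Ncoa1 was 11.9 and 78.3, 2.72 higher, and the nuclear receptor Nr2f2 was 1.27 higher. Among the lower genes were Crabp2 (-2.82), Meis1 (-2.69), Tshz1 (-2.37), Crabp1 (-2.27), Fabp5 (-2.13), the retinol receptor gene Stra6 (-2.06), Nr2f1 (-2.05) and Hoxa5 (-2.0). Both intracellular carriers of retinoic acid, Crabp1 and Crabp2, were thus lower in the cells where Rxrg was high.

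Over the 27 combinations of gate and age with at least 50 cells, the levels of each member were set beside those of 12426 genes as log2 values after adding 5 to the level. These correlations describe points that share libraries and depth and carry no test. Rxrg was most like Mstn (Pearson's r 0.92), Mybpc1 (0.91) and Tceal7 (0.90), all highest in the Acta1 step. Rarg was most like Mdfic (0.84), Mdfi (0.81) and Mtmr11 (0.81), of which Mdfi was highest in cartilage and Mdfic in sclerotome. Cyp26a1 was most like Klhl14 (0.80), 4930426D05Rik (0.74) and Igsf5 (0.72), all highest in the E9.5 nephric gate, and Cyp26b1 most like Ica1 (0.76), Erg (0.75), a factor of endothelial cells, and Ccdc125 (0.75).

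For Aldh1a2 the highest value was only 0.69, with Gm8113, followed by Abhd11os (0.69) and Ifitm1 (0.68). Rarb was most like Kdm3a (0.85), Tmem138 (0.82) and Dhx40 (0.81), Rara most like Ift43 (0.93), Dync1li2 (0.93) and Bod1 (0.92), Rxra most like 9530068E07Rik (0.85), Kif13a (0.85) and Lrp4 (0.83), and Rxrb most like Fam172a (0.94), Klhl9 (0.93) and Carkd (0.93). Cyp26c1 had too few UMIs for this reading.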

How the data were processed

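Single-cell RNA counts of dissociated inter-limb somites were analysed in 2 libraries, 1 at E9.5 and 1 at E11.5, each a pool of 3 embryos. The deposited files hold raw UMI counts per gene and cell barcode, which the authors made with Cell Ranger 3.0.1 against mm10, per the submitters' processing notes. Cells were kept, gated and summed as described above, with cells weighted by their UMIs. Gates needed 2 to 4 genes of a fixed marker list, or set UMIs of Pax3 and Pax7, Myod1, Myog, Acta1 or Scx (at least 2 UMIs for Pax3 and Pax7 together, for Myod1 and for Scx, and 3 for Myog), and red blood cells needed 10% globin UMIs. No doublet caller was run: cells in gates of different kinds were left out, and cells with 6500 genes or more were removed.

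Levels carry exact Poisson bounds, shares Clopper-Pearson bounds and log2 ratios the exact bounds of a ratio of 2 Poisson counts, all at 95%. Cells are not replicates, so no test was run and no p-value is given. A gene was measured in a comparison with at least 100 UMIs in both gates together and called past a 2-fold difference, in 20 comparisons. A level of 0 was set at a floor of 3 counts per gate. Shares were also given at an equal depth of 5000 UMIs, drawn at random from each cell, without shallower cells (537 and 727 kept cells).

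The genes named are the members, 43 genes of a fixed retinoid list, the marker lists, and for each member with at least 200 UMIs the 3 genes of highest correlation over gates. Some genes of these lists are counted but not reported here by name. The members and the lists were chosen with earlier results of these data known. Promoters were read from RefSeq (GRCm38.p6), 250 bases before each start, and gene positions from the GENCODE annotation of GRCm38. In all, 7 alternatives were fixed at the start (stricter gates, muscle and Scx minimums per 10000 UMIs, at least 1000 genes per cell, fewer than 5000 genes per cell, thinning, a mean over cells, and cells of several gates kept), and 3 were added after seeing the data (gates of 25 to 49 cells, and the splits of neural progenitors and of ungated cells). The code was tested on simulated data. Python 3.11.15 was used with numpy 2.4.6, scipy 1.17.1, pandas 2.3.3 and matplotlib 3.10.9.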

Additional observations from a re-analysis of the deposited data

Results flagged for a closer look

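Aldh1a2 differed between the ages in opposite directions in different gates, with bounds on either side of 0. The log2 difference of E11.5 over E9.5 was 2.04 in the nephric gate and 3.70 in the motor neuron gate, and it was -3.80 in the Pax3/Pax7 step, -6.49 in the Myog step, -4.44 in the sclerotome gate, -5.92 in neural progenitors and -2.79 in neural crest. Rarb was likewise 1.28 in the Pax3/Pax7 step and -1.05 in the neuron gate. With 1 library per age the difference between these gates was not tested. The motor neuron value rests on 6 UMIs at E9.5 and on 103 UMIs in 6 cells at E11.5, and the nephric gate held different cells at the 2 ages.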

How the results depend on the processing

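Of 562 alternative values for 81 ratios, 503 moved by less than their counting bounds, 53 moved further and 6 had the other sign. Of the 9 ratios fixed at the start none had the other sign, and 55 of 62 values stayed within bounds. The rest were the following. With stricter gates Rarg in sclerotome over the Pax3/Pax7 step at E11.5 was 3.99. With UMI minimums per 10000 UMIs the differences of Aldh1a2 between ages were -3.03 in the Pax3/Pax7 step and -3.78 in sclerotome. Thinned to 5000 UMIs, Rara in the Acta1 over the Pax3/Pax7 step was 1.53 and Aldh1a2 in sclerotome between ages -3.92. As a mean over cells, Rxra in the Acta1 over the Pax3/Pax7 step was 0.96 and Rxrg in the Acta1 over the Myog step 3.56. The other sign was seen for Rarg with stricter gates, -0.36 in cartilage over sclerotome and -0.23 in lateral plate between ages. Thinned, the difference between ages was 0.033 for Rara and 0.074 for Rarb in neural crest and 0.35 for Cyp26b1 in endothelial cells, and as a mean over cells it was 0.042 for Rarb in neurons. The cause was not tested. With stricter gates Aldh1a2 in sclerotome between ages had no ratio because the E11.5 gate had 0 UMIs. No paired analysis was possible because each age is 1 library, and for the same reason no replicate could be left out. Genes with few UMIs, such as the Cyp26 genes, are limited by depth, and levels near 1 UMI per gate carry bounds wider than the level.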
